A study of Mus musculus and Homo sapiens with 4 samples.

Results

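The 4 sites described here are stretches of human chromatin on which the transcription factor Miz1 was called bound with very high scores: those named after ST7, GPHN, PCNXL3 and FBXL15. They are 4 of the 2911 Miz1 peaks of the human list, and of the 3172 peaks in the 2 lists of the study. Each was found as the single peak at a given hg19 position. They were chosen by their measured score and width, so these values describe the sites and no test was made on them. The study made chromatin immunoprecipitation followed by sequencing (ChIP-seq) of Miz1 in 2 kinds of cell, with an input library of unselected DNA for each. The sites come from a human line named MDA-MD-231 in the labels, grown in medium with fetal calf serum, in which the antibody G18 was used to precipitate Miz1. The other list, with 261 peaks, was made with the antibody H190 from neuronal progenitor cells of mouse embryos (E13.5 brain), which were grown into neurospheres before use. No treatment or change of genotype is named for either, and the human peaks come from 1 library, so no value below has a replicate error.

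Miz1, encoded by ZBTB17, carries a BTB/POZ domain and a row of zinc fingers, and binds DNA near the start sites of genes. It can activate genes by itself, and it can repress them when the oncoprotein MYC is bound to it. In ChIP-seq a peak is a stretch of DNA where reads from the precipitate pile up. Its width is the length of that stretch, and its score is the peak caller's measure of how far the pile stands out. Miz1 was studied here for its part in autophagy, the breakdown of cell contents in lysosomes. None of the 4 genes after which the sites are named is best known as a gene of the autophagy machinery.

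All 4 sites had scores of 3100 or more, a level reached by 161 of the 2911 human peaks, or 5.53% (background for the whole list). Exactly 159 of these 161 peaks shared the value 3100, so most of them cannot be ranked against each other. The value is called the ceiling below, and peaks at 3100 or more are counted as at the ceiling. It is not a strict upper limit, because 2 peaks were listed above it. The scale of the score was not stated, and whether those 2 were stronger or weaker than the tied peaks was not determined here. A listed value above 3100 is therefore not read as stronger binding. The sites at FBXL15, PCNXL3 and GPHN were among the tied peaks. The site at ST7 was listed above the ceiling at 3159.1, as the second-highest score, below a peak of 960 bp on chromosome 19 (chr19:1935371-1936330) at 3224.6. The highest score below the ceiling was 3087.6, at a peak of 527 bp on chromosome 9.

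The sites at FBXL15, PCNXL3 and GPHN were the widest of the peaks at the ceiling, with 2961, 2661 and 2373 bp. The median width was 346 bp in the whole list and 1068 bp at the ceiling. The next peak at the ceiling, just outside the choice, was 2226 bp wide and lay on chromosome 14 (chr14:69618129-69620354). The site at ST7 does not match the description "widest": its 1366 bp placed it 38th among the 161 peaks. The ST7 site was 3.95 times as wide as the median of the list, whereas the others were 6.86 times (GPHN), 7.69 times (PCNXL3) and 8.56 times (FBXL15) as wide. Together the 4 sites covered 9361 bp, or 0.749% of the 1251 kb under human peaks.

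**Figure D1:**
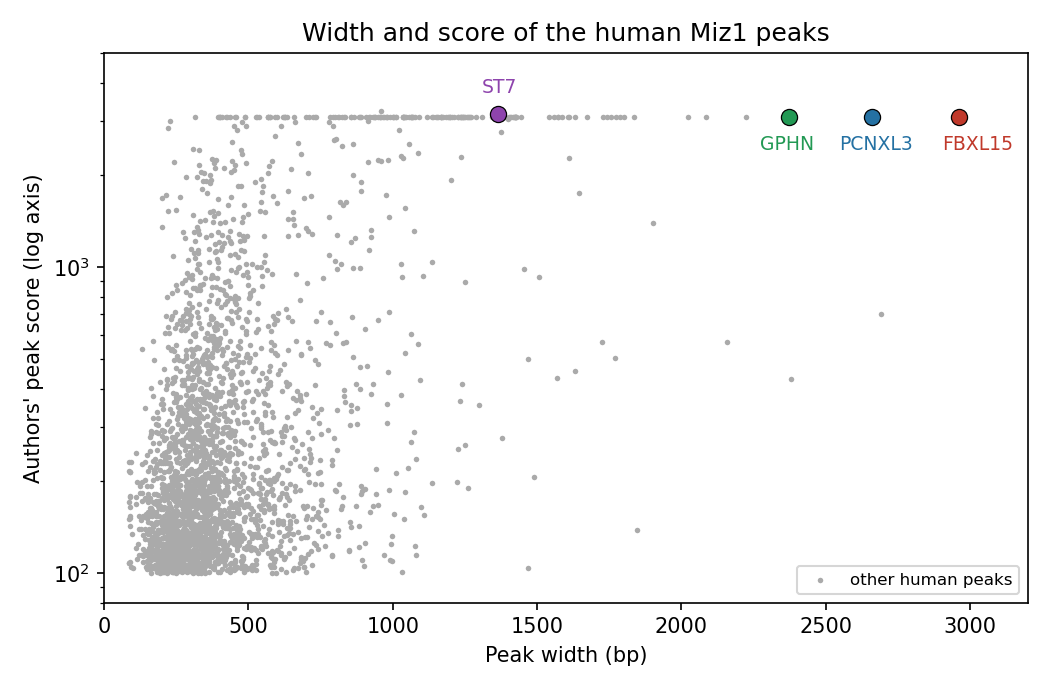
Width in bp (horizontal axis) and the authors' score on a log axis (vertical) of the 2911 human Miz1 peaks, with the 4 sites in colour and the other peaks in grey. The row of points at 3100 is the ceiling: FBXL15, PCNXL3 and GPHN lie at its right end, and ST7 sits slightly above it at 1366 bp.

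Not every very wide peak was at the ceiling. Only 9 peaks of the list, or 0.309%, were 2000 bp or wider, and 6 of these were at the ceiling. Below the ceiling, a peak of 2692 bp on chromosome 4 (chr4:182160273-182162964) scored 700.2 and was wider than the PCNXL3 site. A peak of 2382 bp near the far end of chromosome 7 (chr7:157939570-157941951) scored 431.5 and was wider than the GPHN site by 9 bp. Hence in the whole list FBXL15 ranked 1 in width, PCNXL3 ranked 3 and GPHN ranked 5.

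The gene at each site is given by the name under which the site was chosen. Whether the site covers the promoter, an exon or an intron was not analysed here, because the gene table used holds mouse genes of GRCm38.p6 and no annotation or sequence of hg19 was used. For the same reason no sequence or motif of the sites is shown. In the mouse table the counterpart of PCNXL3, Pcnx3, and the gene Map3k11 stand next to each other on opposite strands. Mouse Fbxl15 stands between Psd and Cuedc2, St7 between Capza2 and Wnt2, and Gphn between Gm6657 and Fam71d. These are orders of mouse genes, and no human peak was assigned from them.

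The site at FBXL15 was the widest Miz1 peak in the human list and the only one of the 4 with other peaks close by. FBXL15 is an F-box protein, the part of a ubiquitin ligase that selects the proteins to be marked for destruction. The peak spanned 2961 bp on chromosome 10 (chr10:104179224-104182184, score 3100). It was the widest of 121 peaks on that chromosome, of which 6 were at the ceiling. The nearest other ceiling peaks lay 22.2 Mb before it and 27.7 Mb after it.

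Within 100 kb of the FBXL15 site there were 5 more peaks, 2 before it and 3 after it. All 6 lay in a stretch of 69.4 kb (chr10:104153685-104223055), of which peaks covered 5929 bp, or 8.55%. The site itself made up 49.9% of the covered bases. No neighbour reached the ceiling, and the site was 3.75 times as wide as the widest of them, at 789 bp.

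The closest neighbour began only 138 bp after the end of the site, a peak of 536 bp with a score of 196.2. A gap this small or smaller was found at 84 peaks of the list, or 2.89%. Counted as one region, the pair was 3635 bp wide. The strongest neighbour came next, 9.74 kb beyond the site (chr10:104191928-104192597), with 670 bp and a score of 1273.5. That score was reached or passed by 10.2% of the list.

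The last peak on that side lay 40.5 kb away, was 324 bp wide and scored 287.9. On the other side a peak of 649 bp scoring 298.7 lay at 19.6 kb, and one of 789 bp scoring 114.2 lay at 24.8 kb. The peak at 24.8 kb was thus the widest neighbour and had the lowest score. Width and score did not follow each other among these 5 peaks. Of the 5, 4 were wider than the median of the list and 4 scored at or above its median of 185.1. Farther out, a peak of 1028 bp scoring 2296.1 lay at 207 kb and one of 719 bp scoring 347.9 lay at 285 kb, and no more were found up to 1 Mb.

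The site at PCNXL3 had no other peak within 100 kb while 14 peaks lay farther away, within 1 Mb. PCNXL3, now called PCNX3, is a membrane protein related to pecanex of the fruit fly. Its neighbour MAP3K11 is a protein kinase that acts upstream of JNK in stress signalling. The peak spanned 2661 bp on chromosome 11 (chr11:65381151-65383811, score 3100). It was the widest of 193 peaks on the chromosome, of which 9 were at the ceiling, the nearest of them 1.85 Mb after it and 18.8 Mb before it.

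The nearest peak to the PCNXL3 site lay 116 kb before it, was 654 bp wide and scored 101.9, a value that 97.9% of the list reached or passed. A pair of peaks followed at 190 kb (683 bp, score 129.8) and 194 kb (377 bp, score 188.2). In all, 7 peaks lay within 300 kb, 5 before the site and 2 after it. Their widths of 377 to 826 bp were all above the median of the list, and 3 of the 7 scores reached its median.

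The highest of these 7 scores was 563.8, at the widest of them, 293 kb after the site. The PCNXL3 site was 3.22 times as wide as this peak. Within 1 Mb there were 14 peaks, 11 before the site and 3 after it, with scores from 101.9 to 1940.1. Of these 7 scored at or above the median of the list, and their median score of 178.1 was close to the 185.1 of the list. At this distance 3.30% of the list had as many neighbours or more, and the median peak had 3. None of the 14 was at the ceiling.

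The site at GPHN lay farthest of the 4 from its nearest neighbour, with no other Miz1 peak within 1 Mb. GPHN encodes gephyrin, which anchors glycine and GABA-A receptors at inhibitory synapses and also completes the molybdenum cofactor of several enzymes. The peak spanned 2373 bp on chromosome 14 (chr14:66973953-66976325, score 3100). The nearest peaks lay 1.79 Mb before it and 1.19 Mb after it. For 91.6% of the peaks in the list the nearest neighbour was as close as this or closer.

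The GPHN site was the widest of 106 peaks on chromosome 14, of which 5 were at the ceiling. The nearest ceiling peak followed 2.64 Mb after it, and it was the one of 2226 bp that came next to the 3 wide sites in width. The 2 widest peaks of chromosome 14 were therefore both at the ceiling. That second peak had 1 neighbour within 100 kb, at 95.8 kb.

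The site at ST7 had the second-highest listed score, which is not read as its rank in strength, and many ceiling peaks were wider. Whether the ST7 site was stronger or weaker than the peaks tied at 3100 was not determined here. ST7 is a membrane protein that has been studied as a candidate tumour suppressor. The peak spanned 1366 bp on chromosome 7 (chr7:116593281-116594646, score 3159.1). It stood 57th in width in the list and ranked 5 among 116 peaks of its chromosome, 13 of which were at the ceiling. The wider ones on chromosome 7 had 2382, 1789, 1428 and 1377 bp, and all but the widest scored 3100.

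Next to the ST7 site in order of width at the ceiling stood peaks of 1377 bp (such as chr7:44787783-44789159) and 1361 bp (such as chr10:7859985-7861345). Both widths were tied among ceiling peaks. No peak lay within 100 kb of the ST7 site. The nearest one lay 425 kb before it, with 308 bp and a score of 280.0, and was the only one within 1 Mb. After the site the list held no peak for 6.58 Mb. The nearest ceiling peaks were 6.60 Mb after and 17.6 Mb before it.

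**Figure D2:**
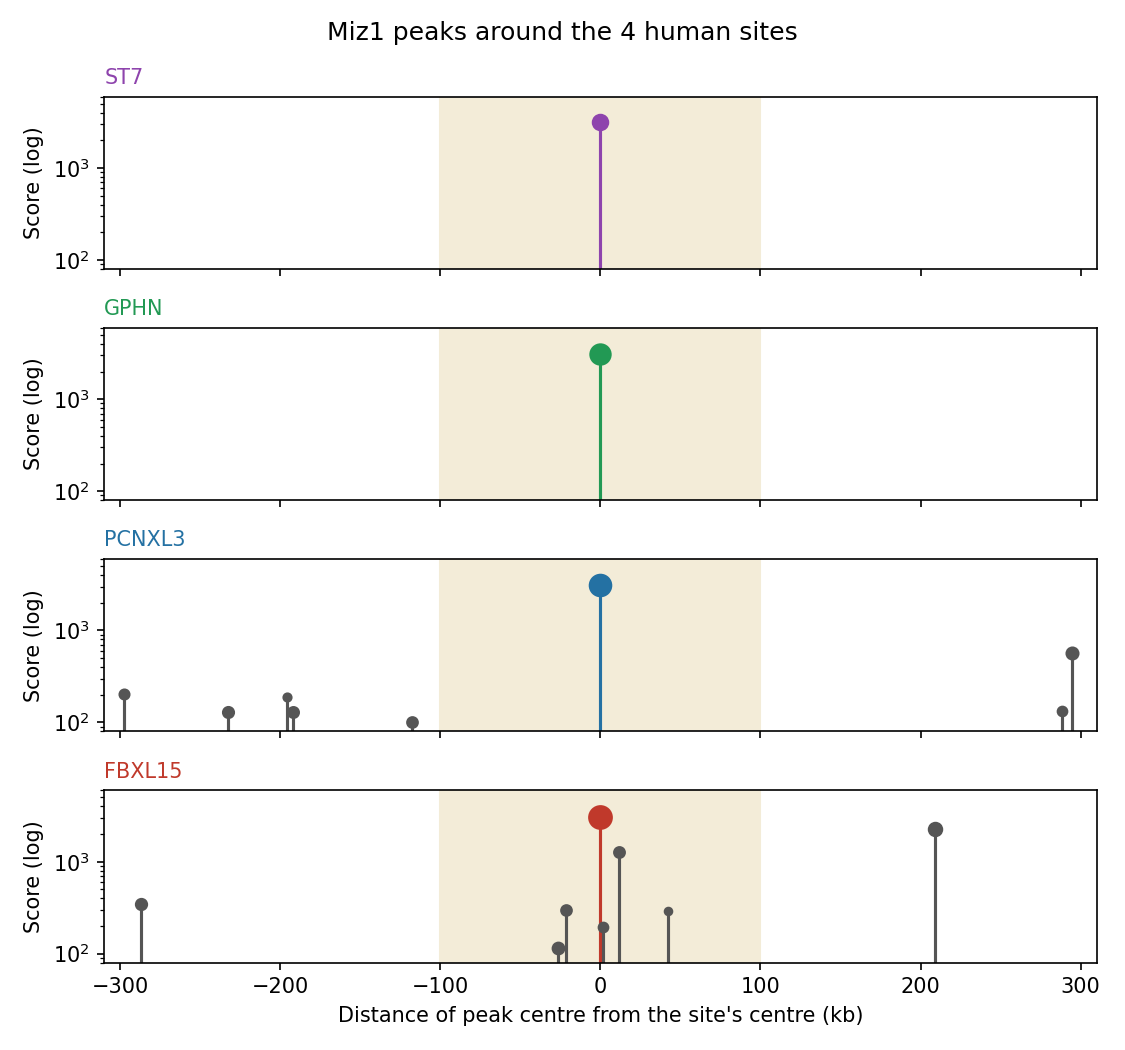
Miz1 peaks up to 300 kb on each side of the 4 sites, by the distance of each peak's centre from the centre of the site in kb (horizontal axis) and the authors' score on a log axis (vertical). The site is in colour, other peaks are in grey, the area of a point grows with the width of its peak, and the shaded band marks 100 kb on each side. FBXL15 alone has other peaks in the band, 5 of them, while ST7 and GPHN stand alone in the whole window.

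The count of neighbours was set beside that of the whole list, since neighbours were not used to choose the sites. In the list 1307 of 2911 peaks, or 44.9% (95% Wilson interval 43.1 to 46.7%), had another peak within 100 kb, measured from edge to edge. At the ceiling 98 of 161 peaks did so, or 60.9% (interval 53.2 to 68.1%). Of the 4 sites 1 had such a neighbour, and of the 9 peaks of 2000 bp or more 3 did. These counts describe the 4 sites, and no difference from the list was tested.

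The 5 neighbours of FBXL15 were more than most peaks had. In the list 114 peaks, or 3.92% (interval 3.27 to 4.68%), had 5 or more, and at the ceiling 13 of 161 did, or 8.07% (interval 4.78 to 13.3%). The most found at a ceiling peak was 7 and the most in the list was 16. Among these 13 peaks, each call counted apart, FBXL15 was the widest. The other 12 had 394 to 1802 bp, with a median of 1168 bp, and 6 of them were on chromosome 1. Of those 6, 5 were pieces of a single stretch (chr1:16268424-16275040), so 1 locus was counted 5 times among the 13. Joined, that stretch was 6617 bp wide, more than FBXL15. In the wider window of 1 Mb FBXL15 had 7 neighbours, and 27.2% of the list had as many or more.

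The small gap beside the FBXL15 site was of a kind shared by 7.52% of the list, the 219 peaks with a neighbour under 1 kb away. Such a neighbour was found at 26 of the 161 ceiling peaks, or 16.1%, and at 1 of the 9 peaks of 2000 bp or more, which is FBXL15.

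**Figure D3:**
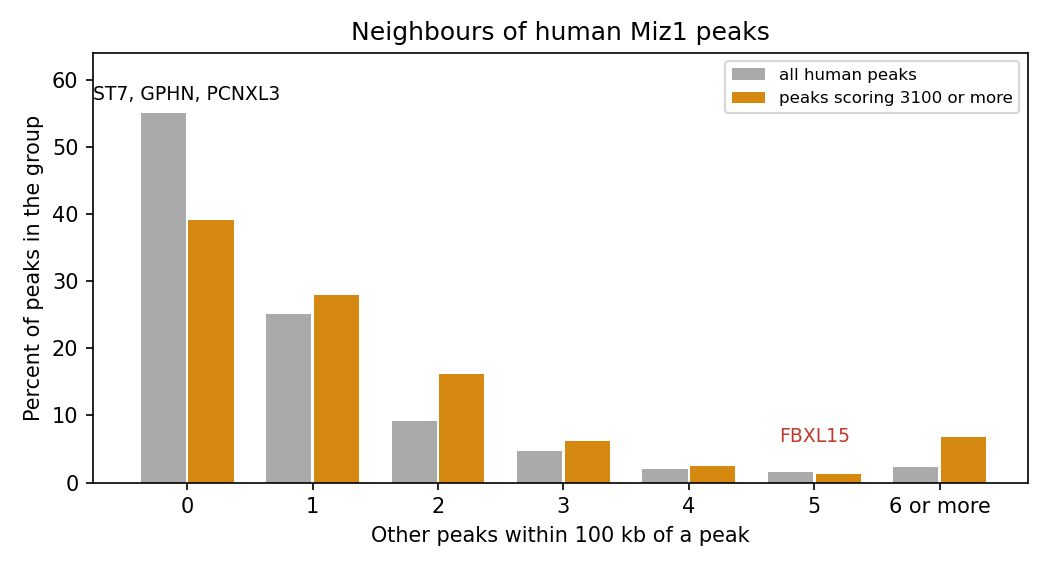
Percent of peaks (vertical axis, from 0) by the number of other peaks within 100 kb (horizontal axis), for all 2911 human peaks in grey and the 161 peaks scoring 3100 or more in orange. ST7, GPHN and PCNXL3 fall in the group with 0 neighbours, which holds 55.1% of all peaks and 39.1% of those at the ceiling, and FBXL15 falls in the group with 5.

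The order of widths depended on whether peaks close together were counted apart. With peaks less than 1 kb apart joined, which leaves 2791 regions, FBXL15 grew to 3635 bp and ranked 3. The stretch on chromosome 1, with 8 joined peaks, and a region of 4 on chromosome 2 (chr2:1346113-1350074, 3962 bp) were wider. PCNXL3 then came 14th, GPHN 19th and ST7 104th, each still a single peak of the same width.

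Of the 13 regions wider than PCNXL3 12 were made of several peaks, as were 15 of the 18 wider than GPHN. The PCNXL3 and GPHN sites were thus continuous calls, while most regions that passed them in width were chains of narrower ones.

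**Figure D4:**
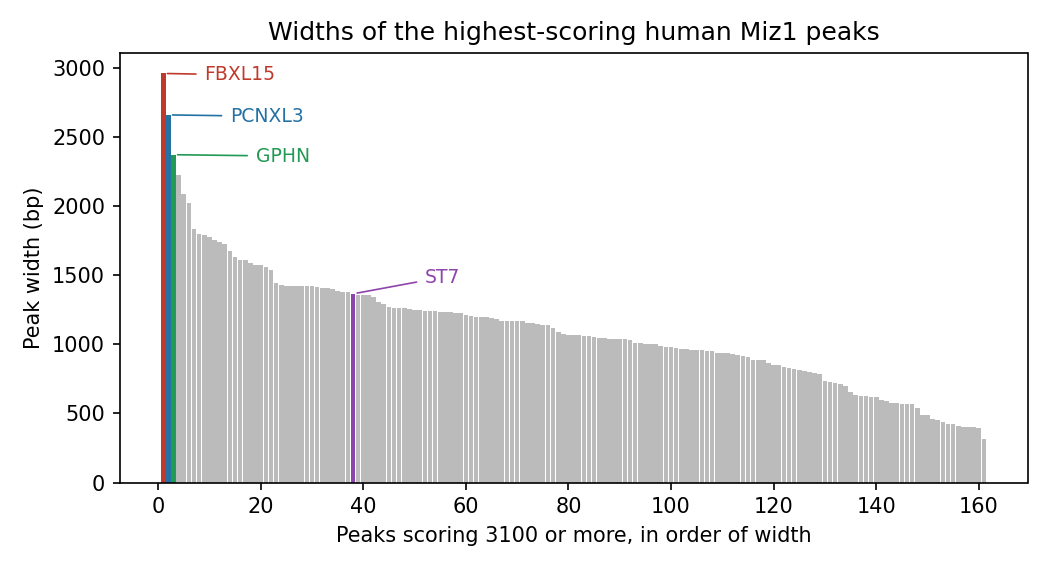
Widths in bp (vertical axis, from 0) of the 161 human peaks scoring 3100 or more, each a bar, in order from the widest (horizontal axis). FBXL15, PCNXL3 and GPHN are the first 3 bars at 2961, 2661 and 2373 bp, and ST7 is the 38th at 1366 bp, in the flat part of the curve above the median of 1068 bp.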

How the data were processed

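The deposited lists hold the position, the name and the authors' score of each peak, without a header. Per the labels, cells were fixed with formaldehyde (1%, 10 minutes, 37 °C), the chromatin was sonicated, and fragments of about 200 bp went through 18 PCR cycles. CASAVA, FastQC, Bowtie 0.12.7 and MACS 1.4.2, with hg19 for the human list, are named in the submitters' processing notes. Settings, the use of the input, read depth and the scale of the score were not stated in these sources, so no precision from depth can be stated.

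Coordinates count from 1. Gaps are bases between the edges of peaks. Ranks, neighbours and 95% Wilson intervals were computed in Python 3.11.15 with scipy 1.17.1. Intervals treat the peaks of 1 library as units and cover counting error only. Having a neighbour is mutual, so peaks are not independent and the intervals on neighbour shares can be too narrow. Neighbour counting was tested on simulated data, in which no distance lay near the 100 kb limit. No tests were made. The sites and the measures were chosen with earlier results of these data known. The named sites were the 4 chosen, every peak within 100 kb of them, and the peaks just outside the choice. The peaks farther away and the comparisons among dense or joined peaks were chosen after their values were seen. Motifs and promoters were not analysed here.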

Additional observations from a re-analysis of the deposited data

How the results depend on the processing

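Of 45 alternatives over 9 results, 32 left the value within 1.5 times, or the share within its interval. Some of these could not have moved, so the tally does not measure how steady the results are. A site with 0 neighbours keeps 0 at 50 kb, centre to centre, with higher-scoring neighbours only, or with close peaks joined. FBXL15, ranked 1, stays 1 in any part of the list that holds it. Joining peaks less than 1 kb apart moved the width ranks to 3 (FBXL15), 14 (PCNXL3), 19 (GPHN) and 104 (ST7). Among ceiling peaks alone GPHN ranked 3. PCNXL3 had 3 neighbours within 200 kb and, with windows chosen after the data were seen, 7 within 300 kb and 14 within 1 Mb, where ST7 had 1. The share of peaks with a neighbour was 33.3% at 50 kb, 59.8% at 200 kb, 32.9% in the upper part of the list by score (1456 peaks, from the median up), and 41.0% with close peaks joined. Scores were taken as deposited, with no alternative. The depth is unknown, and with 1 library neither width nor score has an error. No paired analysis was possible because the 4 sites come from 1 library.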
